A study of Mus musculus with 6 samples.

Results

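Selectins, the carriers of their ligands and the enzymes that build those ligands were described in tumours of HM1, a mouse ovarian cancer cell line. The 9 genes were taken by symbol, and each matched a single row among the 57462 genes measured. They are the selectin genes Sele and Selp, the carrier genes Selplg, Glg1, Cd44 and Podxl, and the enzyme genes Fut4, Fut7 and Gcnt1. RNA was sequenced from 3 tumours labelled shST3GAL3, in which the cells carried a short hairpin RNA against the sialyltransferase ST3GAL3 (genotype given as knockdown). The other 3 tumours were labelled shControl, with a control hairpin and a genotype given as wild type, and all 6 came from an early tumour model. Host strain, age, time after implantation and the number of hairpins or clones are not given in the sources used. Whether each tumour grew in its own mouse is not stated, so a p-value here measures spread among 3 libraries a group that may be partly technical.

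Selectins are lectins that slow leukocytes on the vessel wall. E-selectin (Sele) is made by activated endothelium, and P-selectin (Selp) is stored in endothelium and platelets. They bind sialyl Lewis X, a sugar in which galactose carries sialic acid and N-acetylglucosamine carries fucose. The sialic acid is added by ST3GAL enzymes, the fucose by FUT7 and FUT4, and on mucin-type proteins the sugar often sits on a core 2 branch begun by GCNT1. The comparison thus covers the transcripts around the step that ST3GAL3 can take part in.

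Levels are given as TPM, a share of the library's transcripts that allows for gene length and may be compared between genes. Read numbers cannot be recovered from TPM, and depth is therefore unknown. St3gal3 stood at 8.44, 6.77 and 7.49 TPM in shST3GAL3 tumours 1, 2 and 3, against 14.03, 13.84 and 13.79 TPM in shControl tumours 1, 2 and 3, as the labels imply. The tumour shST3GAL3 1 stood apart, with a median absolute log2 difference of 0.241 to 0.308 from the other 5 libraries, while the other 5 differed from each other by 0.132 to 0.168. Of the epithelial markers, Krt8, Krt18 and Krt19 reached 384.42 TPM or more in every tumour. Muc16 was listed at 0 in all 6, Krt7 stayed under 1 TPM, and Epcam and Pax8 reached at most 1.17 and 1.65 TPM. Cdh1 stood at 9.46, 2.58 and 2.89 TPM in shST3GAL3 tumours, against 2.94, 3.14 and 2.44 TPM in shControl tumours, with a positive log2 fold change of 0.46 (SE 0.41), while the other 3 epithelial markers tested had negative ones. The summed level of the 8 epithelial markers was 1765.42 to 3193.35 TPM in shST3GAL3 tumours and 3192.99 to 3673.01 TPM in shControl tumours.

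In both groups Cd44 was the most abundant of the 9 genes, with a mean of 257 TPM over all 6 tumours, and its range lay clear of that of Glg1, at 72.1 TPM. Selplg followed at 37.3 TPM, and its range reached into that of Glg1 through shST3GAL3 1. The remaining genes lay between 4.83 TPM for Fut4 and 11.8 TPM for Gcnt1. From Gcnt1 down through Sele, Fut7, Selp and Podxl to Fut4, each gene's range overlapped that of the next. Gcnt1 nevertheless stood above Sele in 6 of 6 tumours, and the ranges of both lay wholly above that of Fut4.

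**Figure D1:**
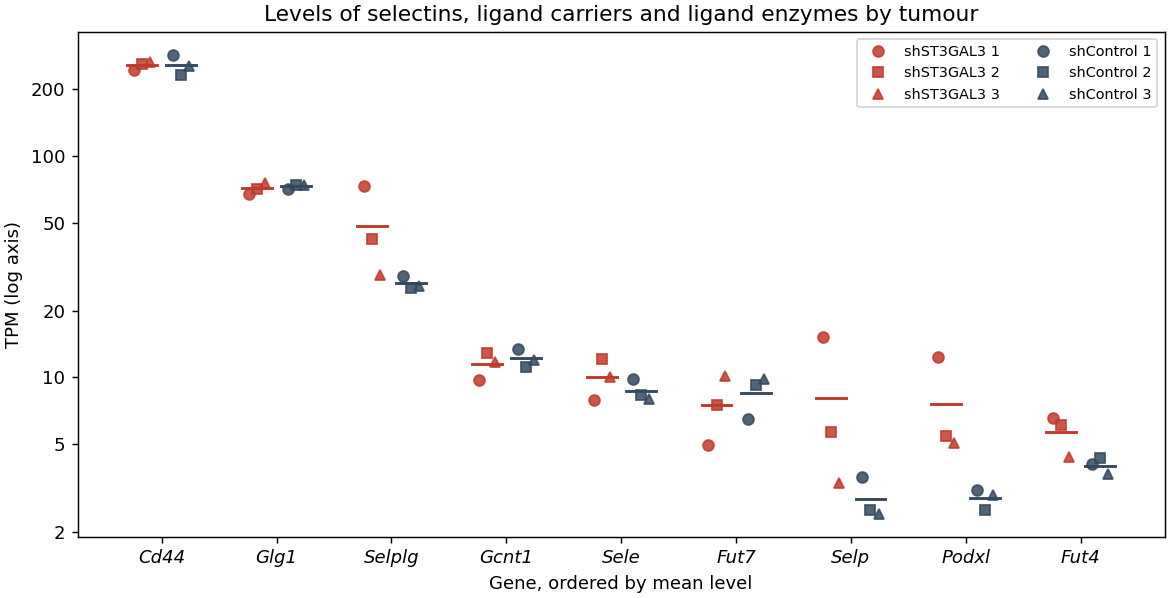
Level of each of the 9 genes in TPM on a log axis, with the 3 shST3GAL3 tumours left of the 3 shControl tumours, symbols for tumours 1 to 3 and lines at group means. Podxl, Selplg and Fut4 lie higher in all 3 shST3GAL3 tumours than in any shControl tumour, while Cd44, Glg1, Gcnt1, Sele and Fut7 overlap and shST3GAL3 1 is the highest point for Selp.

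Over all 14207 genes tested with limma on log2(TPM + 1), 0 of the 9 genes passed an adjusted p of 0.05, against a background of 0.00704% of genes called, a single gene. With limma library weights 695 genes were called by the default method and 8 by the gene-by-gene method. At an unadjusted p under 0.05, 3 of the 9 were higher and 0 were lower in shST3GAL3 tumours, against 9.19% and 3.78% of all tested genes. Under median-ratio scaling of the libraries 1 of the 9, Podxl, was higher and 0 were lower, against 6.80% and 5.78% of all tested genes. Without that scaling the 3 were Podxl, Selplg and Fut4, and the same genes had all 3 shST3GAL3 values above all 3 shControl values. Across all tested genes 15.7% had that order and 7.76% the opposite one. The median log2 fold change of the 9 was 0.17, beside 0.013 over all tested genes. Without shST3GAL3 1 these medians were 0.31 and 0.040, and without shST3GAL3 2 the first was 0.038. The genes were chosen with earlier results of these tumours known, so the counts are a description.

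Sele and Selp both lie on mouse chromosome 1. The 250 bases before their annotated starts are shown as a description, from RefSeq on GRCm38.p6, an earlier build than the GRCm39 named for these libraries. Both lie on the plus strand, Sele at chr1:164047984-164048233 and Selp at chr1:164115014-164115263. Capitals mark matches, on either strand, to 4 motifs chosen after these sequences had been read.
Sele: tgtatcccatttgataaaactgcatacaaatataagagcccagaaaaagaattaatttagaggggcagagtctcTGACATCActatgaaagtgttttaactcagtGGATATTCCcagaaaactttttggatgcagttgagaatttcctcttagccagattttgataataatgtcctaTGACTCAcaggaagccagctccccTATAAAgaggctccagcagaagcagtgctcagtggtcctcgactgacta
Selp: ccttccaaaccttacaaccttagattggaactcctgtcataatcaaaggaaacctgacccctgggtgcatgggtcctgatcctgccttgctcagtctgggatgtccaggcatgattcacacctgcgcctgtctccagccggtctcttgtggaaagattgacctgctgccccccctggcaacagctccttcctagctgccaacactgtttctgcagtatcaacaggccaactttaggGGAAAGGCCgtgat
The motifs were an NF-kB type element (GGNNNTTCC), an ATF type element (TGACNTCA), an AP-1 element (TGACTCA) and a TATA box (TATAAA). In this window they occur in 15.7%, 7.49%, 4.46% and 12.4% of the 32851 promoters of the table. The Sele window held all 4, one match of each. In order from the 5′ end these were the ATF type element, the NF-kB type element GGATATTCC at 145 to 137 bases before the start, the AP-1 element, and the TATA box at 49 to 44 bases before it. The Selp window held a single match, to the NF-kB type element on the minus strand, 14 to 6 bases before the start. No match overlapped another, and a match describes the letters alone. A link between these letters and the levels in the tumours was not tested.

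P-selectin transcripts had a higher mean in the shST3GAL3 tumours, carried mostly by 1 tumour. Selp stood at 15.12, 5.63 and 3.31 TPM in shST3GAL3 tumours 1, 2 and 3, against 3.53, 2.52 and 2.41 TPM in shControl tumours 1, 2 and 3. The groups overlapped, since shST3GAL3 3 lay below shControl 1. Means were 8.02 ± 6.26 TPM in shST3GAL3 and 2.82 ± 0.617 TPM in shControl tumours (SD, n = 3 each), with a log2 fold change of 1.03 (SE 0.46, limma adjusted p = 0.394). Without shST3GAL3 1 the log2 fold change was 0.50 (SE 0.24, limma adjusted p = 0.482).

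For E-selectin transcripts the groups overlapped. Sele stood at 7.89, 12.09 and 10.05 TPM in shST3GAL3 tumours 1, 2 and 3, against 9.76, 8.33 and 7.97 TPM in shControl tumours 1, 2 and 3. The tumour with the most Selp thus had the lowest Sele value, but shControl 3, with the least Selp, was almost level at 7.97 TPM. The log2 fold change of Sele was 0.17 (95% interval -0.23 to 0.57, limma adjusted p = 0.637). Without shST3GAL3 1 it was 0.32 (limma adjusted p = 0.436).

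The ratio of Selp to Sele within a library, which does not depend on the library's total, was taken after the values had been seen. It was 1.92, 0.466 and 0.329 in shST3GAL3 tumours 1, 2 and 3, against 0.362, 0.303 and 0.302 in shControl tumours 1, 2 and 3. On the log2 scale the ratio differed by 1.05 (exact two-sided permutation p = 0.2), and by 0.29 without shST3GAL3 1. With 3 tumours against 3 the smallest p that this test allows is 0.1, so no single ratio could pass a threshold of 0.05.

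Among the carriers, Podxl had the smallest unadjusted p of the 9 genes (0.0115, limma). It encodes podocalyxin, a sialomucin of endothelium and kidney podocytes that can carry selectin ligands. It stood at 12.31, 5.43 and 5.05 TPM in shST3GAL3 tumours 1, 2 and 3, against 3.10, 2.50 and 2.93 TPM in shControl tumours 1, 2 and 3. The lowest shST3GAL3 value was above the highest shControl value. The log2 fold change was 1.07 (SE 0.31, limma adjusted p = 0.38), and it was 0.70 without shST3GAL3 1 (SE 0.14, limma adjusted p = 0.306). The call depended on library weights: Podxl passed with the default limma weights, whose estimate stopped before converging (0.76, limma adjusted p = 0.0402), and not with gene-by-gene weights, which were added after that result had been seen (0.78, limma adjusted p = 0.138). The podocyte gene Nphs1 and the mesothelial genes Upk3b and Lrrn4 stayed under 1 TPM in all 6 tumours. Msln, another mesothelial gene, stood at 13.64 to 19.78 TPM in shST3GAL3 and 15.36 to 16.77 TPM in shControl tumours, and Wt1, shared by podocytes and mesothelium, at 0.58 to 3.01 TPM in shST3GAL3 and 0.49 to 1.48 TPM in shControl tumours. The part of such cells in the Podxl values was not tested.

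Selplg encodes PSGL-1, the main P-selectin ligand of leukocytes. It stood at 73.16, 41.96 and 29.09 TPM in shST3GAL3 tumours 1, 2 and 3, against 28.62, 25.32 and 25.89 TPM in shControl tumours 1, 2 and 3. The groups did not overlap, but shST3GAL3 3 lay only just above shControl 1. Means were 48.1 ± 22.7 TPM in shST3GAL3 and 26.6 ± 1.76 TPM in shControl tumours (SD, n = 3 each), with a log2 fold change of 0.73 (SE 0.30, limma adjusted p = 0.385). Without shST3GAL3 1 it was 0.38 (limma adjusted p = 0.431).

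The other carriers lay close together in the groups. Cd44, a hyaluronan receptor whose glycoforms can bind E-selectin, stood at 245.79, 261.63 and 264.78 TPM in shST3GAL3 tumours, against 285.42, 233.37 and 253.88 TPM in shControl tumours. All 3 shST3GAL3 values lay within the shControl range. Its log2 fold change was 0.0033 (95% interval -0.21 to 0.22), with a sign that turned under other scalings of the libraries. Glg1, which encodes the Golgi glycoprotein ESL-1, an E-selectin ligand of mouse myeloid cells, stood at 67.32, 70.82 and 75.66 TPM in shST3GAL3 tumours, against 70.70, 73.71 and 74.15 TPM in shControl tumours. The groups overlapped, with a log2 fold change of -0.033 (95% interval -0.21 to 0.14), which was 0.0071 without shST3GAL3 1.

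The fucosyltransferase genes differed from each other in their order over the tumours. Fut4, whose enzyme adds fucose in an α1,3 linkage and is widespread in myeloid cells, stood at 6.53, 6.10 and 4.37 TPM in shST3GAL3 tumours, against 4.03, 4.29 and 3.63 TPM in shControl tumours. The groups did not overlap, although shST3GAL3 3 was close to shControl 2. Its log2 fold change was 0.41 (SE 0.17, limma adjusted p = 0.384), and 0.31 without shST3GAL3 1. Fut7, whose enzyme completes sialyl Lewis X on an already sialylated chain, stood at 4.94, 7.47 and 10.09 TPM in shST3GAL3 tumours, against 6.47, 9.20 and 9.79 TPM in shControl tumours. The lowest and the highest value both belonged to shST3GAL3 tumours, and the log2 fold change of -0.19 (SE 0.26, limma adjusted p = 0.745) was 0.049 without shST3GAL3 1.

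The ratio of Fut4 to Fut7, also taken after the values were seen, was 1.32, 0.817 and 0.433 in shST3GAL3 tumours 1, 2 and 3, against 0.623, 0.466 and 0.371 in shControl tumours 1, 2 and 3. The groups overlapped (log2 difference 0.71, exact two-sided permutation p = 0.3), and the difference was 0.32 without shST3GAL3 1. Gcnt1, the core 2 branching enzyme, stood at 9.73, 12.79 and 11.70 TPM in shST3GAL3 tumours, against 13.35, 11.16 and 11.93 TPM in shControl tumours. Its log2 fold change was -0.088 (95% interval -0.40 to 0.22, limma adjusted p = 0.763), and 0.013 without shST3GAL3 1.

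**Figure D2:**
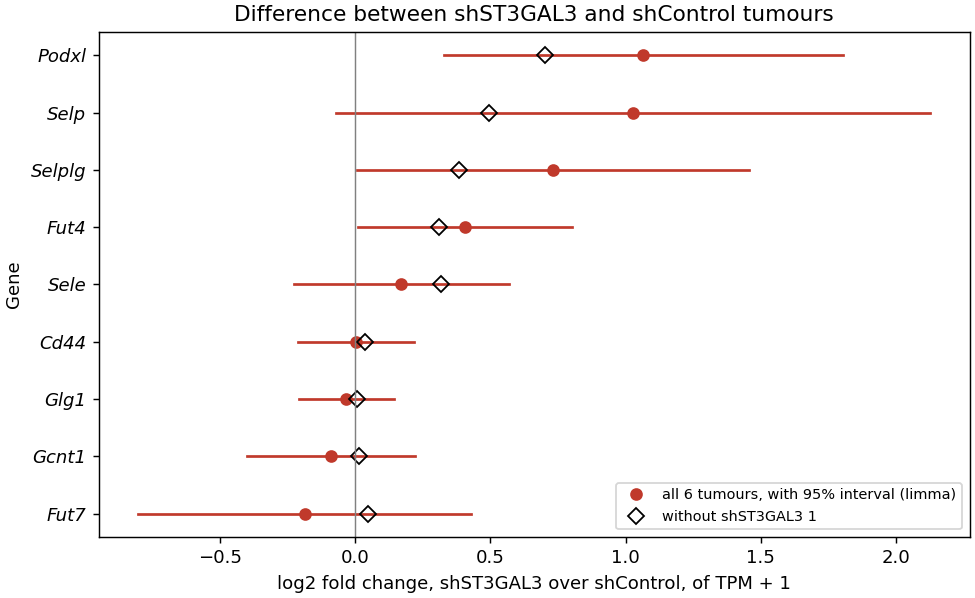
The log2 fold change of each gene, shST3GAL3 over shControl, on the log2(TPM + 1) scale, with filled points and lines for all 6 tumours and their 95% intervals from limma and open diamonds for the value without shST3GAL3 1. Podxl, Selp, Selplg and Fut4 keep a positive value without that tumour, at 0.70, 0.50, 0.38 and 0.31, while Fut7, Gcnt1 and Glg1 turn sign at values near 0.

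Genes that mark endothelium also had higher values in the shST3GAL3 tumours, and in a bulk tumour more cells of a type and more RNA per cell cannot be told apart. The summed level of 10 endothelial markers was 330.09, 142.16 and 117.33 TPM in shST3GAL3 tumours 1, 2 and 3, against 81.96, 66.92 and 93.10 TPM in shControl tumours 1, 2 and 3. Tek passed the filter on low values through the shST3GAL3 tumours alone and is left out of the counts. Log2 fold changes were positive for 9 of the other 9 markers (median 1.03), and 7 lay above the shControl range in all shST3GAL3 tumours, against 15.7% of all tested genes, while 0 passed the adjusted test. With Tek the median was 1.02, and 0.64 without shST3GAL3 1. Tie1, an endothelial receptor, had a log2 fold change of 1.33 (SE 0.39), Vwf, a clotting factor carrier stored with P-selectin, 0.97 (SE 0.29), and Emcn, an endothelial sialomucin, 1.29 (SE 0.42). Platelets are the other store of P-selectin. Their markers Gp1bb, Gp9, Gp6 and Treml1 stayed under 1 TPM in all 6 tumours, and the 7 platelet markers summed to 117.56 to 308.63 TPM in shST3GAL3 and 104.97 to 145.07 TPM in shControl tumours. Most of that sum was Pf4, at 277.71, 104.94 and 128.19 TPM in shST3GAL3 tumours, against 128.48, 93.79 and 115.90 TPM in shControl tumours. Ppbp stood at 28.06, 10.26 and 21.20 TPM in shST3GAL3 tumours, against 14.81, 8.56 and 11.36 TPM in shControl tumours. Itga2b stood at 1.49 TPM or more in all 6. Of the 3 platelet markers tested, 3 had positive log2 fold changes (median 0.47, or 0.20 without shST3GAL3 1). In all 3 the groups overlapped, and the part of platelets in the Selp values was not tested.

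Set against the endothelial sum, both Selp and Podxl overlapped between the groups. Selp came to 4.58%, 3.96% and 2.82% of that sum in shST3GAL3 tumours 1, 2 and 3, against 4.31%, 3.77% and 2.59% in shControl tumours 1, 2 and 3. The log2 ratio differed by 0.095 (exact two-sided permutation p = 0.6), and by -0.056 without shST3GAL3 1. Podxl came to 3.73%, 3.82% and 4.30% in shST3GAL3 tumours, against 3.78%, 3.74% and 3.15% in shControl tumours, a log2 difference of 0.15 (exact two-sided permutation p = 0.3) that was 0.069 without shControl 3 and 0.091 without shST3GAL3 3. The overlap for Podxl depended on the denominator. Over Pecam1 and Cdh5 alone its log2 difference was 0.15, and over the mean log2(TPM + 1) of the markers 0.22. With both of these the groups did not overlap for Podxl (exact two-sided permutation p = 0.1, the smallest possible), while Selp still overlapped.

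With the endothelial sum higher in shST3GAL3 tumours and its own TPM overlapping (log2 fold change 0.17), Sele had a lower mean log2 ratio there. It came to 2.39%, 8.50% and 8.57% of the endothelial sum in shST3GAL3 tumours 1, 2 and 3, against 11.9%, 12.4% and 8.56% in shControl tumours 1, 2 and 3. The log2 ratio differed by -0.96 (exact two-sided permutation p = 0.2) and by -0.34 without shST3GAL3 1, with shST3GAL3 3 and shControl 3 at almost the same value. Over Pecam1 and Cdh5 alone the difference was also -0.96, and there the groups did not overlap (exact two-sided permutation p = 0.1). Over the mean log2(TPM + 1) of the markers it was -0.89 (exact two-sided permutation p = 0.3). The ratio of Podxl to Sele, taken after the values were seen, was 1.56, 0.449 and 0.502 in shST3GAL3 tumours, against 0.318, 0.300 and 0.368 in shControl tumours. The groups did not overlap (log2 difference 1.11, exact two-sided permutation p = 0.1, the smallest possible), and the difference was 0.54 without shST3GAL3 1.

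Leukocyte markers likewise had higher values. The 8 markers summed to 1941.13, 1450.63 and 1119.39 TPM in shST3GAL3 tumours 1, 2 and 3, against 1055.18, 1001.38 and 916.69 TPM in shControl tumours 1, 2 and 3. Log2 fold changes were positive for 8 of 8 (median 0.54, or 0.35 without shST3GAL3 1), 5 lay above the shControl range in all shST3GAL3 tumours, against 15.7% of all tested genes, and 0 passed the adjusted test. Itgb2, the β chain of the integrins that leukocytes use after rolling, had a log2 fold change of 0.73 (SE 0.18).

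Selplg came to 3.77%, 2.89% and 2.60% of the leukocyte sum in shST3GAL3 tumours 1, 2 and 3, against 2.71%, 2.53% and 2.82% in shControl tumours 1, 2 and 3. The groups overlapped (log2 difference 0.18, exact two-sided permutation p = 0.4), and the difference was 0.030 without shST3GAL3 1. Fut4 came to 0.336%, 0.421% and 0.390% in shST3GAL3 tumours, against 0.382%, 0.428% and 0.396% in shControl tumours, a log2 difference of -0.077 (exact two-sided permutation p = 0.6). That sign turned without shST3GAL3 1 and with Ptprc as the only marker.

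For Gcnt1 the ratio was lower in all 3 shST3GAL3 tumours. It came to 0.501%, 0.882% and 1.05% of the leukocyte sum there, against 1.27%, 1.11% and 1.30% in shControl tumours 1, 2 and 3 (log2 difference -0.66, exact two-sided permutation p = 0.1, the smallest possible). Without shST3GAL3 1 the difference was -0.35. With Ptprc as the only marker it was -0.55, and the groups overlapped (exact two-sided permutation p = 0.2). Fut7 came to 0.254%, 0.515% and 0.901% in shST3GAL3 tumours, against 0.613%, 0.919% and 1.07% in shControl tumours, with overlap (log2 difference -0.78, exact two-sided permutation p = 0.2, and -0.31 without shST3GAL3 1). The TPM of both genes overlapped between the groups, with log2 fold changes of -0.088 for Gcnt1 and -0.19 for Fut7. A higher leukocyte sum lowers such a ratio even where the gene itself does not differ. Which cells held these transcripts was not tested. Against the epithelial markers, a denominator added after the values were seen, the log2 ratio differences had the other sign. They were 0.23 for Fut7 and 0.35 for Gcnt1 on the log2 scale, each with overlap and an exact two-sided permutation p of 0.3. Without shControl 1 the value for Fut7 was 0.070 and without shControl 3 it was 0.39, and that for Gcnt1 was 0.22 without shST3GAL3 1 and 0.23 without shControl 2. Adjusted by the Benjamini-Hochberg method over the 12 main ratios, without those to alternative markers, the exact permutation p-values lay between 0.4 and 0.6.

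**Figure D3:**
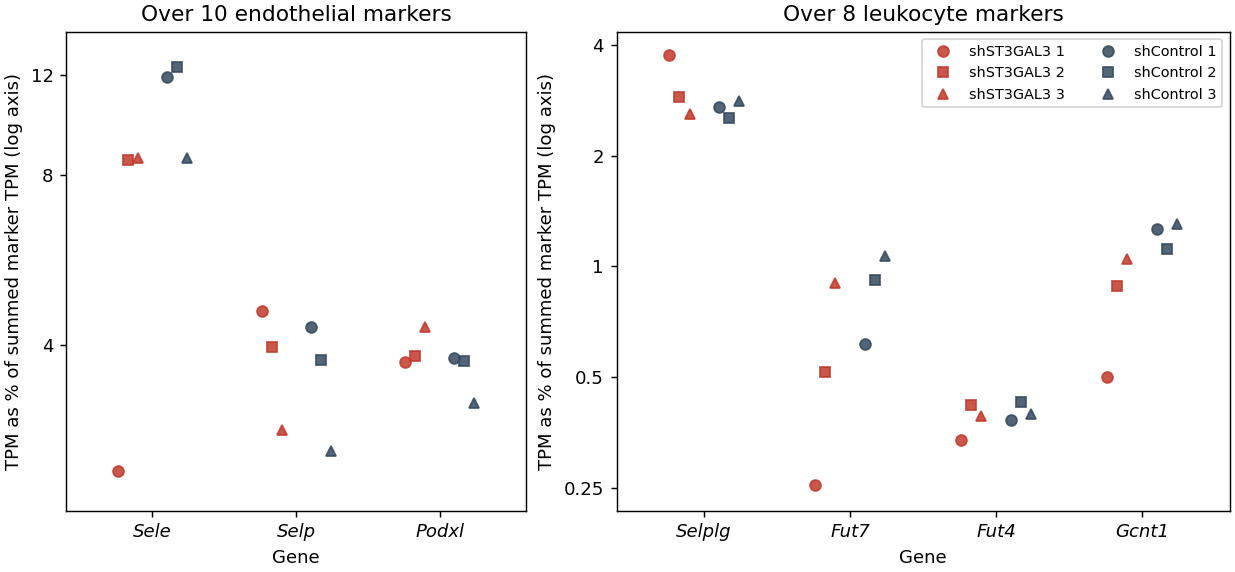
TPM of each gene as a percentage of the summed TPM of 10 endothelial markers (left) or 8 leukocyte markers (right), on log axes, with shST3GAL3 tumours left of shControl tumours and a symbol for each tumour. Sele lies at 2.39% in shST3GAL3 1 and between 8.50% and 12.4% in the other 5, Gcnt1 lies lower in all 3 shST3GAL3 tumours, and the groups overlap for every other gene shown, Sele included.

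Other genes of the pathway were read from lists of carriers, enzymes, fucose donors and adhesion partners. Among 8 further carrier genes 5 were tested, 4 had positive values and 3 lay above the shControl range in all shST3GAL3 tumours, against 15.7% of all tested genes, with a median log2 fold change of 0.44 (0.17 without shST3GAL3 1). Emcn, among these 3, was also counted with the endothelial markers. Cd34, a sialomucin of endothelium, high endothelial venules included, and of progenitors, stood at 53.64, 16.61 and 10.62 TPM in shST3GAL3 tumours, against 8.38, 6.82 and 8.44 TPM in shControl tumours. Lamp1, a lysosomal glycoprotein, had a log2 fold change of 0.29 (SE 0.11). Glycam1 and Madcam1, which encode other ligands of high endothelial venules, did not pass the filter. Glycam1 stood at 4.47 TPM in shST3GAL3 1 and at most 0.31 TPM elsewhere, and Madcam1 reached at most 0.24 TPM. Spn, which encodes the leukocyte sialomucin CD43, stood at 36.29, 48.52 and 47.44 TPM in shST3GAL3 tumours, against 49.15, 49.09 and 43.36 TPM in shControl tumours.

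Of 16 further enzymes of the sialyl Lewis and core 2 routes 13 were tested, 3 lay above and 3 below the shControl range in all shST3GAL3 tumours, against 15.7% and 7.76% of all tested genes, and the median log2 fold change was -0.075 (0.017 without shST3GAL3 1). St3gal3 itself is one of those below, with a log2 fold change of -0.80 (SE 0.11, limma adjusted p = 0.348). St3gal4, another ST3GAL gene, stood at 58.24, 73.43 and 73.51 TPM in shST3GAL3 tumours, against 77.68, 67.05 and 72.45 TPM in shControl tumours. St3gal6 stood at 25.08, 56.46 and 52.73 TPM in shST3GAL3 tumours, against 48.94, 53.13 and 60.59 TPM in shControl tumours, with overlap for both genes. C1galt1c1 encodes the chaperone of the core 1 enzyme. It stood at 17.63, 24.32 and 22.80 TPM in shST3GAL3 tumours, against 29.24, 26.35 and 32.30 TPM in shControl tumours (log2 fold change -0.43, SE 0.14, limma adjusted p = 0.38). Gcnt4, another core 2 enzyme gene, stood at 5.78, 9.22 and 8.92 TPM in shST3GAL3 tumours, against 10.27, 9.85 and 10.20 TPM in shControl tumours, the groups again not overlapping.

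B4galt1, whose enzyme adds the galactose that ST3GAL enzymes cap, stood at 94.36, 68.57 and 69.70 TPM in shST3GAL3 tumours, against 59.59, 55.93 and 60.09 TPM in shControl tumours (log2 fold change 0.38, SE 0.13, limma adjusted p = 0.38). The fucosyltransferase gene Fut9 reached at most 0.02 TPM and the core 2 gene Gcnt3 at most 0.03 TPM in any tumour. Chst4, a sulphotransferase of high endothelial venules, was listed at 0 in 4 tumours and at 0.58 and 0.22 TPM in shST3GAL3 1 and 3. Tyrosine sulphation of PSGL-1 needs TPST enzymes, and Tpst1 and Tpst2 had log2 fold changes of 0.013 and 0.011 (SE 0.087 and 0.10).

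The genes that supply GDP-fucose gave no common direction, with 3 of 5 positive and a median log2 fold change of 0.16 (0.065 without shST3GAL3 1). Gfus, the last step of the main route, was lower in every shST3GAL3 tumour than in any shControl tumour, at 64.16, 90.30 and 94.23 TPM in shST3GAL3 tumours, against 96.84, 97.22 and 101.47 TPM in shControl tumours (log2 fold change -0.27, SE 0.15, limma adjusted p = 0.44). Slc35c1, the Golgi GDP-fucose transporter, stood at 15.26, 12.45 and 12.69 TPM in shST3GAL3 tumours, against 13.21, 12.21 and 10.54 TPM in shControl tumours, with overlap.

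Of 7 endothelial adhesion partners Ackr1 passed the filter through the shST3GAL3 tumours alone and is left out of the counts. Of the other 6, 5 had positive values and 3 lay above the shControl range in all shST3GAL3 tumours, against 15.7% of all tested genes, with a median log2 fold change of 0.45. Pecam1, among these 3, was also counted with the endothelial markers. Vcam1, an integrin ligand that inflamed endothelium shows together with E-selectin, stood at 86.17, 56.52 and 44.53 TPM in shST3GAL3 tumours, against 35.21, 28.52 and 29.60 TPM in shControl tumours. Its log2 fold change was 0.93 (SE 0.23, limma adjusted p = 0.38). Icam1, another such ligand, stood at 36.72, 40.05 and 29.77 TPM in shST3GAL3 tumours, against 28.15, 26.43 and 25.30 TPM in shControl tumours (log2 fold change 0.39, SE 0.12). In none of these 4 pathway lists did a gene pass the adjusted test.

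**Figure D4:**
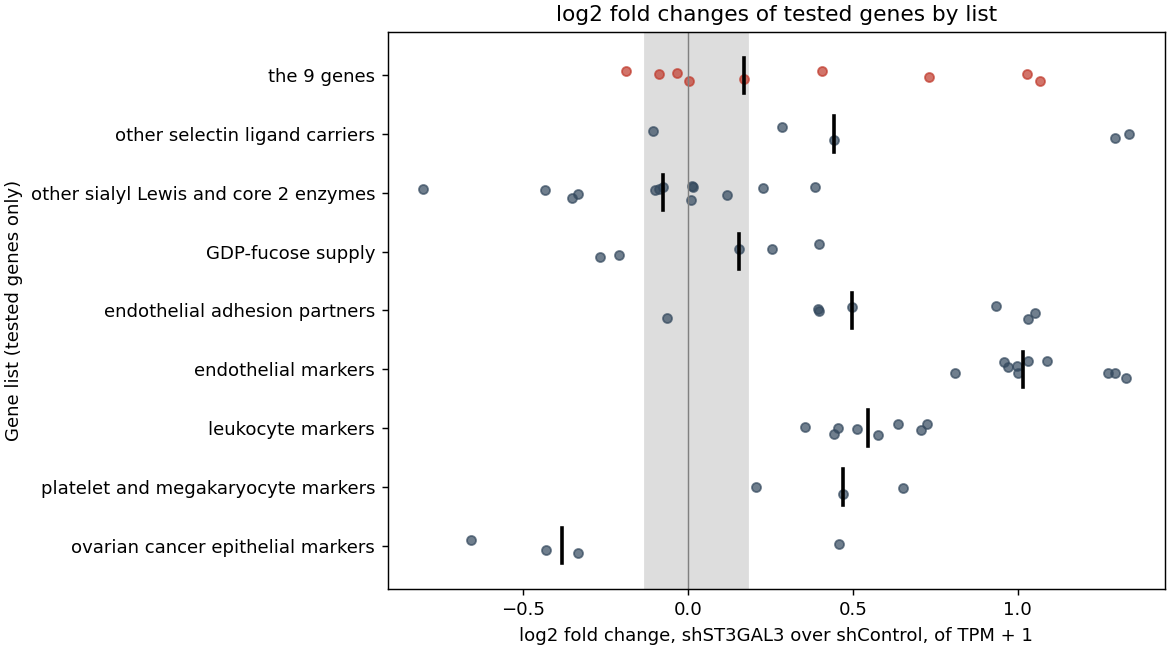
The log2 fold changes, shST3GAL3 over shControl, of the tested genes in each list, with a bar at each list's median and grey shading over the middle 50% of all tested genes; Tek and Ackr1 are drawn with their lists. The 9 genes spread from -0.19 to 1.07, the endothelial and leukocyte markers lie to the right of 0, and the fucose supply and sialyl Lewis enzyme genes lie on both sides of it.

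The tested genes whose order over the 6 libraries was most like that of each gene were found by Pearson correlation of log2(TPM + 1), as a description. For Sele they were Ckm and Myh4, genes of skeletal muscle, with correlations of 0.991 and 0.982 over 6 libraries. Ckm stood at 0.09, 24.01 and 4.53 TPM in shST3GAL3 tumours, against 4.85, 0.17 and 0.27 TPM in shControl tumours, and the part of adjoining muscle in the Sele values was not tested. For Selp the closest were Cd244a and Btk, genes of leukocytes (0.998 each). For Selplg the closest were Sec22b (0.999) and Steap4 (0.998), and for Podxl C1s2 and Ccdc80 (0.999 each). The gene closest to Fut4 was the leukocyte marker Cd52 (0.996), and that closest to Fut7 was Slc4a2 (0.990). Each of the genes named beside Selp, Selplg and Podxl had its highest value in shST3GAL3 1. Genes with little difference between the groups had matches as close, with top correlations of 0.993 for Glg1, 0.995 for Cd44 and 0.998 for Gcnt1. The best match among so many genes over 6 libraries is high in any case, so these correlations name no cell source.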

How the data were processed

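The titles of the 6 RNA sequencing libraries gave their groups. Per the labels' protocols, RNA was extracted with TRIzol, freed of DNA and prepared for Illumina sequencing. The values are TPM as deposited, 1 column per library with 2 decimals, a unit judged from equal sums over libraries. Per the submitters' processing notes, fastp, HISAT, RSEM and GRCm39 were used, while versions, annotation and strand are not given in the sources used. TPM is relative to a library's total, and no depth or counting interval can be given.

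Genes reaching a TPM of 1 in 3 libraries were tested with limma 3.58.1 (R 4.3.3) on log2(TPM + 1), using a mean-variance trend, the group alone, and Benjamini-Hochberg adjustment over 14207 genes. Fold changes on this scale understate those of low genes. All 9 genes passed the filter, none through 1 group alone. Ratios to summed marker TPM used an exact two-sided permutation test. The procedure was tested on simulated data. Members, lists and tests were chosen with earlier results of these data known. From each list, up to 3 genes with the smallest p and markers a result turned on were named, and others after their values were seen. Promoters were found for 7 of 9 genes. No 2 libraries were duplicates, with at most 0.549% of tested genes at equal TPM. Alternatives were another pseudocount, no filter, other scalings, a replicate block, library weights by the default and, added later, the gene-by-gene method, other marker denominators and leaving out each library. Some listed genes are not reported here and were left out of the list counts.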

Additional observations from a re-analysis of the deposited data

How the results depend on the processing

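Under 241 alternative values of 23 results, 217 were counted as unchanged. For the log2 fold change of a gene this meant the same sign and the same call. For a ratio it meant the same sign alone, whatever its p or overlap. The count of genes called and the median of the 9 genes were allowed a set margin. The count of genes called over all tested genes, 1 as reported, was 2 with a pseudocount of 0.1, and 0 to 2 when a library was left out, with 0 without any 1 shControl library. With limma library weights by the default method, whose estimate stopped before converging, 695 genes were called. Podxl then passed, with a log2 fold change of 0.76 (limma adjusted p = 0.0402), and the median of the 9 genes was 0.40, against 0.17 as reported. The gene-by-gene method was added after those calls had been seen and called 8 genes, with Podxl at 0.78 (limma adjusted p = 0.138) and a median of 0.34. Under every other alternative run, and for the other 8 genes under both weightings, no adjusted p of 0.05 was passed. Cd44 turned to -0.016 with median-ratio scaling and to -0.016 without mitochondrial, ribosomal protein and immunoglobulin genes, and Gcnt1 to 0.046 with default and 0.014 with gene-by-gene library weights. With a library left out, log2 fold changes ran from -0.065 to 0.080 for Cd44, -0.076 to 0.0071 for Glg1, -0.40 to 0.049 for Fut7 and -0.17 to 0.013 for Gcnt1. The log2 ratio of Selp to endothelial markers ran from -0.12 to 0.29, and that of Fut4 to leukocyte markers from -0.15 to 0.013, and was 0.035 with Ptprc alone. Those of Selplg, Fut7 and Gcnt1 to leukocyte markers ran from 0.030 to 0.30, -1.22 to -0.31 and -0.88 to -0.35, that of Podxl to endothelial markers from 0.069 to 0.20 and that of Fut4 to Fut7 from 0.32 to 1.13. The log2 fold change of Selp ran from 0.50 to 1.45, Selplg from 0.38 to 1.03, Podxl from 0.70 to 1.27 and Sele from 0.038 to 0.32. At an unadjusted p under 0.05, 1 to 5 of the 9 genes were higher and 0 lower over these alternatives, with 1 under median-ratio scaling, where 54.1% of all such genes were higher, against 70.8% as reported. The causes were not tested.

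Same-numbered tumours did not deviate together (correlations of 0.014, -0.080 and 0.040). These values give no sign of pairing by number, but 3 libraries a group cannot exclude it. With the replicate number as a block, Podxl had a log2 fold change of 1.07 (limma adjusted p = 0.332), 1 gene was called and no call at the adjusted p changed. The SE fell from 0.46 to 0.31 for Selp and from 0.26 to 0.14 for Fut7. At an unadjusted p under 0.05, 4 of the 9 genes were then higher, against 3 as reported, with Selp added (limma unadjusted p = 0.0212). Depth is unknown, so the number of reads behind low values such as those of Glycam1 cannot be given. Only their spread over the replicates can be read.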
